A study of Homo sapiens with 12 samples.

Results

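The 34 genes described here encode the steps of glycolysis and a set of hypoxia-responsive genes. They were chosen by name from the 57905 genes of the deposited single-cell RNA-seq (scRNA-seq) tables. They comprise 4 glucose and lactate transporters, 17 glycolytic enzymes, 12 other targets of hypoxia-inducible factor (HIF) and the HIF subunit gene HIF1A. All 34 symbols were found in both tables, and 26 of them reached 10 CPM (UMIs of a gene per 1000000 UMIs of its library) in at least 1 library, as did 7980 genes in all. A UMI is a molecular tag that counts 1 captured transcript.

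Glycolysis splits glucose into pyruvate, which lactate dehydrogenase can convert to lactate. The lactate leaves the cell through monocarboxylate transporters. HIF is a pair of transcription factor subunits, and its alpha subunit is degraded when oxygen is plentiful. Stabilized HIF binds short DNA elements (hypoxia response elements) near glycolytic genes, and MYC is also known to drive many of these genes in proliferating lymphoid cells.

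The cells were Nalm-6, an established human line from a B cell precursor acute lymphoblastic leukemia (pre-B-ALL). The RUNX1-labelled library came from cells with a Tet-On regulator and a lentiviral pLVX-Tight-Puro vector holding a RUNX1 cDNA, induced with 500 ng/ml doxycycline for 72 h. The control library is labelled empty vector and 72 h, but its title names DMSO, and the sources used here do not say whether it received doxycycline. The study also describes a DMSO-treated Nalm-6 library from a drug experiment with the same number of passing cells. Its list of data sets names DMSO Nalm-6 scRNA-seq together with ChIP-seq, as the title does, but that drug experiment was shorter than 72 h. As the label, title and study differ, the identity of the control culture is unsettled. There was 1 library per group, so no test between groups was possible, and the vector, inducer, solvent and culture cannot be told apart from RUNX1. The series also has 10 ChIP-seq samples, not analysed here.

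After filtering, 5598 control cells and 4800 cells of the RUNX1-labelled library remained, with 75754137 and 75350615 UMIs. The median depth was 12506 and 14805 UMIs per cell. Mitochondrially encoded transcripts made up 9.45% and 13.1% of UMIs, and ribosomal protein transcripts 27.4% and 32.3%. The libraries shared 12 cell barcodes, 10 of them among passing cells. The RUNX1 transcript itself was lower in the RUNX1-labelled library (30.4 against 69.7 CPM), which goes against its label. The sources used here do not say whether the 3′ end of the vector transcript was in the annotation. All 14 annotated B cell precursor markers were at 10 CPM or more in the control and 13 in the other library, whereas none of the T cell, myeloid, erythroid, fibroblast or endothelial markers was, with summed levels from 0.066 to 9.58 CPM. Of the control cells 8.34% were called non-cycling, and of the RUNX1-labelled library 61.1%. Ratios of the measured members are therefore also given within cycling (S or G2/M) and non-cycling (G1) cells.

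The promoter sequences of 4 members are shown because they are the lowest 3 and the highest 1 by log2 ratio of the measured members with an entry in the promoter table. They are the 250 bases upstream of the most 5′ listed start of each gene, from RefSeq on GRCh38.p14, read 5′ to 3′ along the gene. Capitals mark the hypoxia response element core, ACGTG or GCGTG on either strand.
BNIP3, chr10:131981924-131982173, minus strand: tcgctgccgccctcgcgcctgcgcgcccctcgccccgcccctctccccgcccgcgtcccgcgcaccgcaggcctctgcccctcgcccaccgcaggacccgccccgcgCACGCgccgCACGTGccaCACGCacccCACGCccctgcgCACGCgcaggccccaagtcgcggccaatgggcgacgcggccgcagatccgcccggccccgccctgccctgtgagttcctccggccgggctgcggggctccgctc
LDHA, chr11:18394313-18394562, plus strand: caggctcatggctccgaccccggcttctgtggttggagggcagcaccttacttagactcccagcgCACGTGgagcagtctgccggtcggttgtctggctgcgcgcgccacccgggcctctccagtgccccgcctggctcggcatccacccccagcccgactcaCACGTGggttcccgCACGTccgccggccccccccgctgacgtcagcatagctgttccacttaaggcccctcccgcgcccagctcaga
TPI1, chr12:6867281-6867530, plus strand: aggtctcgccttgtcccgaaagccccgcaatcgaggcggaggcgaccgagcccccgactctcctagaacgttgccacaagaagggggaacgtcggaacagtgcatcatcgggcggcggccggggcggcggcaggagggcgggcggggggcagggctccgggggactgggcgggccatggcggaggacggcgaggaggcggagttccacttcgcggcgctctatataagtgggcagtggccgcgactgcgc
MXI1, chr10:110207355-110207604, plus strand: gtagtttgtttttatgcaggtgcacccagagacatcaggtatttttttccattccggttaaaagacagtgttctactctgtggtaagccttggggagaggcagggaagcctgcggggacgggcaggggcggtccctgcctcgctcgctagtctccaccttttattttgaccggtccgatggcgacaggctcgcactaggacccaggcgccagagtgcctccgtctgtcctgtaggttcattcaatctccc
The BNIP3 window held 6 such cores and the LDHA window 5, with overlapping matches on the 2 strands counted separately. The TPI1 and MXI1 windows held 0, although both genes have further listed starts. LDHA also held 2 copies of the E-box CACGTG, which MYC and MAX bind and which contains ACGTG, and 1 copy of the RUNX core TGTGGT. The BNIP3 window held 1 copy of the E-box and the MXI1 window 1 copy of the RUNX core. Entries were found for 29 of the 34 genes (not for SLC2A3, SLC16A1, BNIP3L, VEGFA and NDRG1), and 24 of these (82.8%) held a hypoxia response element core in at least 1 window, against 47.4% of all 27305 genes. Counted by window, the share was 56.9% of 58 windows against 43.2% of 35116. The E-box was in 13.8% of the windows against 6.34%, and the RUNX core in 13.8% against 11.0%. Of the 9 members with an entry that were at least 2-fold lower in the RUNX1-labelled library, 8 held a hypoxia response element core, as did 10 of the other 13 measured members. The former had 12 windows and the latter 34, so the number of windows searched per gene was unequal. These are matches of letters in a window and do not show binding.

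The glycolysis and hypoxia genes were mostly lower in the RUNX1-labelled library. Of the 26 measured members, 24 had a log2 ratio below 0 (23 with totals that leave out mitochondrial and ribosomal protein genes), where 4797 of all 7980 genes had. At least 2-fold lower were 10 members (38.5%), where 4.1% of all 7980 genes were. Only SLC2A3 was at least 2-fold higher, where 5.18% of all genes were. The median log2 ratio of the members was -0.79, against -0.13 over all genes. Among all genes 55.8% of the 2-fold differences were in the higher direction. That split was 39.3% with TMM scaling, 39.4% with median-of-ratios scaling and 83.7% with totals that leave out mitochondrial and ribosomal protein genes. These scalings moved the median of all genes to -0.26, -0.26 and 0.14, and the members' median minus that of all genes was -0.66 in the values reported here and -0.65, -0.65 and -0.65 under the others. The last of these covers more genes, as 30 members passed 10 CPM with those totals. As the mitochondrial share differed between the libraries, cells with under 10% were also compared alone (3651 control and 599 other cells), where the median of the members was -0.90 and that of all genes -0.01. In cells with 10 to 15% (1931 and 3057 cells), a range chosen after seeing the data, these medians were -0.80 and -0.12. Above 15%, likewise chosen, they were -0.62 and -0.31, with only 16 control cells against 1144, and there the log2 ratio of SLC2A3 was 0.00098. HK2 and VEGFA passed 10 CPM only in the control and SLC2A3 only in the RUNX1-labelled library, so their passing and their ratio are not independent. Over all 34 members, with UMI numbers under 3 set to 3, 10 were at least 2-fold lower and 4 at least 2-fold higher. Of the 22624 genes with at least 1 UMI in both libraries, 4.18% were lower and 18.6% higher by this measure.

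**Figure D1:**
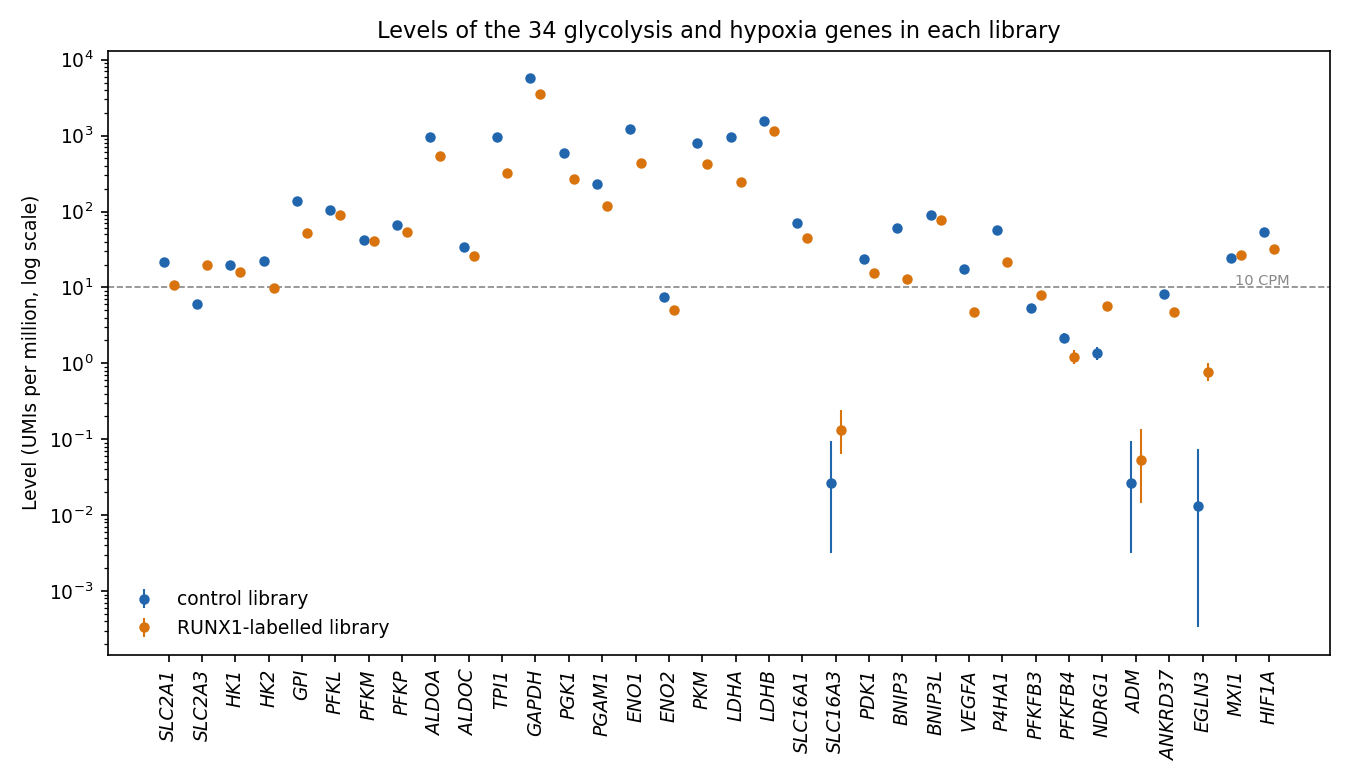
Levels of all 34 genes (CPM, log axis) in the control library and in the RUNX1-labelled library, ordered by role. Bars are exact 95% Poisson intervals for counting error and the dashed line marks 10 CPM. TPI1, ENO1, LDHA, BNIP3 and VEGFA were lower in the RUNX1-labelled library, whereas SLC2A3 was higher and the 3 phosphofructokinase genes lay close together.

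The glucose transporter genes differed in opposite directions. SLC2A1 (GLUT1, the widely expressed glucose transporter, hg19 chr1:43391024-43424564) was at 21.8 CPM in control cells and 10.6 CPM in the RUNX1-labelled library, a log2 ratio of -1.04 (95% interval for counting error -1.16 to -0.92). SLC2A3 (GLUT3, a transporter of high glucose affinity, hg19 chr12:8071826-8171603) was at 5.97 and 20 CPM, a log2 ratio of 1.74 (1.59 to 1.90). Together the pair therefore gave similar numbers of UMIs, 2102 and 2306, while the share of SLC2A3 among them went from 21.5% to 65.4%. UMI levels of a 3′ library are not divided by transcript length, and shares within a pair are shares of captured transcripts. SLC16A1 (MCT1, which carries lactate and pyruvate) was at 70.2 and 45.02 CPM, a log2 ratio of -0.64. SLC16A3 (MCT4, the exporter known from hypoxic cells) had 2 and 10 UMIs in all, a log2 ratio of 2.33 with an interval of 0.10 to 5.56. Lactate transporter transcripts were thus almost all SLC16A1 in both libraries.

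Of the 17 enzymes 16 were measured, and all 16 had log2 ratios below 0 (median -0.88), as had 4797 of all 7980 genes. Exceptions were PFKM, at 0.15 when totals left out mitochondrial and ribosomal protein genes, and PFKL, at 0.0016 in non-cycling cells when phases were called on thinned cells. At least 2-fold lower were 6 of them, where 4.1% of all genes were: HK2, GPI, TPI1, PGK1, ENO1 and LDHA. HK2 (hexokinase 2, the inducible form) was at 22.4 and 9.77 CPM, a log2 ratio of -1.20. HK1, the constitutive form, was at 19.4 and 16.1 CPM, a log2 ratio of -0.27. The share of HK2 in hexokinase UMIs went from 53.6% to 37.7%. GPI, which converts glucose 6-phosphate to fructose 6-phosphate (hg19 chr19:34850385-34893318), was at 138 and 51.5 CPM, a log2 ratio of -1.42 (-1.48 to -1.37).

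Phosphofructokinase, the committed step of glycolysis, differed little. PFKL was at 105 and 90.2 CPM, a log2 ratio of -0.22 (-0.26 to -0.17). For PFKM the levels were 42.6 and 40.9 CPM, and the interval of its log2 ratio held 0 (-0.06, interval -0.13 to 0.01). PFKP was at 65.8 and 53.2 CPM, a log2 ratio of -0.31. The make-up of the family was also similar, with PFKL at 49.1% and 48.9% of its UMIs.

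Later steps of the pathway followed. ALDOA (aldolase A) was at 956 and 540 CPM, a log2 ratio of -0.82, and ALDOC (aldolase C) at 34.3 and 26.3 CPM, a log2 ratio of -0.39. TPI1, which interconverts the triose phosphates (hg19 chr12:6976283-6980112), was at 968 and 317 CPM, a log2 ratio of -1.61 (-1.63 to -1.59). GAPDH, the member with the most UMIs, was at 5689 and 3498 CPM, a log2 ratio of -0.70. This gene is often used as a reference for expression, and here it was 0.615 times its control level.

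PGK1, the first ATP-forming enzyme, was at 584 and 268 CPM, a log2 ratio of -1.12. The next enzyme, PGAM1, was at 228 and 117 CPM, a log2 ratio of -0.97, just short of 2-fold. ENO1 (enolase 1, hg19 chr1:8921059-8939249) was at 1205 and 432 CPM, a log2 ratio of -1.48 (-1.50 to -1.46). ENO2, the neuronal form, stayed under 10 CPM with 560 and 380 UMIs. PKM, which makes pyruvate, was at 809 and 422 CPM, a log2 ratio of -0.94.

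LDHA, the lactate dehydrogenase subunit favouring lactate formation (hg19 chr11:18416107-18429972), had the lowest ratio of the enzymes. Its level was 964 CPM in control cells and 242 CPM in the RUNX1-labelled library, a log2 ratio of -2.00 (-2.02 to -1.97). LDHB, the subunit favouring pyruvate formation, was at 1545 and 1147 CPM, a log2 ratio of -0.43. LDHA thus made up 38.4% of lactate dehydrogenase UMIs in the control and 17.4% in the RUNX1-labelled library.

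The other HIF targets were less uniform. Of 12 genes 6 were measured, and 3 of these were at least 2-fold lower, where 4.1% of all genes were. BNIP3, a mitochondrial protein of mitophagy and cell death (hg19 chr10:133781188-133795471), was at 59.9 and 12.9 CPM, a log2 ratio of -2.21 (-2.32 to -2.11) and the lowest of all members. Rows annotated as BNIP3 pseudogenes held UMIs equal to 4.78% and 10.3% of those of the gene, so reads may be split between near-identical copies. BNIP3L (NIX), its close relative, was at 90.3 and 78.0 CPM, a log2 ratio of -0.21, which was 0.03 when single-cell CPM values were averaged. The share of BNIP3 in the pair went from 39.9% to 14.2%.

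VEGFA, the angiogenic growth factor (hg19 chr6:43737921-43754224), was at 17.3 and 4.74 CPM, a log2 ratio of -1.87 (-2.04 to -1.70). P4HA1, a collagen prolyl hydroxylase subunit, was at 57.2 and 21.8 CPM, a log2 ratio of -1.40. PDK1, the kinase that inhibits pyruvate dehydrogenase, was at 23.6 and 15.4 CPM, a log2 ratio of -0.61. MXI1, a MAX partner that opposes MYC, was at 24.3 and 26.8 CPM, a log2 ratio of 0.14 (0.05 to 0.23). Its direction differed by state, with -0.32 (-0.45 to -0.19) in cycling cells, 0.11 (-0.13 to 0.35) in non-cycling cells and -0.06 with both states weighted equally. HIF1A, the subunit whose protein is degraded in oxygen, was at 54.5 and 32.3 CPM, a log2 ratio of -0.76 (-0.83 to -0.68).

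The remaining 6 HIF targets were under 10 CPM in both libraries. PFKFB3 and PFKFB4, which set the level of the phosphofructokinase activator fructose 2,6-bisphosphate, had 411 and 165 control UMIs, and 594 and 91 in the RUNX1-labelled library. NDRG1, a stress-responsive gene, had 104 and 426 UMIs, and ANKRD37 had 628 and 357. ADM, which encodes adrenomedullin, had 2 and 4 UMIs. EGLN3, a HIF prolyl hydroxylase, had 1 UMI in the control and 58 in the RUNX1-labelled library, a log2 ratio of 5.87 with an interval of 3.33 to 11.2. Of these 6 genes, PFKFB3, NDRG1 and EGLN3 had intervals of the log2 ratio above 0, and PFKFB4 and ANKRD37 intervals below 0. In cycling cells alone PFKFB3 was at -0.27 (-0.53 to -0.01).

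Comparing cells within 1 state asks whether the lower levels go along with the larger non-cycling share. In cycling cells 9 of 26 measured members were at least 2-fold lower, where 1.48% of all genes were, and 1 was at least 2-fold higher, where 1.66% were. In non-cycling cells 10 of 27 were at least 2-fold lower (6.43% of all genes) and 2 at least 2-fold higher (9.9% of all genes). Some of these passed 10 CPM through 1 library only, so their passing and their ratio are not independent. In cycling cells this held for VEGFA (control) and SLC2A3 (RUNX1-labelled library). In non-cycling cells it held for HK2 and VEGFA (control) and for PFKFB3 (RUNX1-labelled library), which was 1 of the 2 higher genes beside SLC2A3. The members' median log2 ratio was -0.83 in cycling and -0.79 in non-cycling cells, against -0.14 and -0.02 over all genes. The members' median was thus of similar size within either state and over all cells. The states were not matched between the libraries, however. Median shares of S-gene UMIs per cell were 0.500% in control and 0.381% in RUNX1-labelled cycling cells, and 0.142% and 0.0708% in non-cycling cells. For G2/M genes they were 0.488% and 0.445%, and 0.151% and 0.0965%. The part of such differences in the ratios was not tested. Of the control cells 467 were non-cycling, 90 of them with a phase score within 0.05 of the limit of the call, so control values in that state rest on few cells.

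Most enzymes were lower still in the non-cycling cells of the RUNX1-labelled library. These cells were also shallower than its cycling cells, with medians of 11659 and 20228 UMIs per cell. The part of depth in this difference between states was not tested. LDHA was at 965 CPM in cycling and 945 CPM in non-cycling control cells. In the RUNX1-labelled library it was at 311 CPM in cycling and 168 CPM in non-cycling cells. Its log2 ratio between libraries was -1.64 (-1.66 to -1.61) in cycling cells and -2.49 (-2.55 to -2.44) in non-cycling cells. For ENO1 these log2 ratios were -1.17 and -1.88, for GPI -1.19 and -1.69, and for GAPDH -0.57 and -0.93. The ratio was lower in non-cycling cells for 12 of the 16 enzymes and higher for the other 4 (HK1, PFKL, PFKP and PKM). Over all genes the median ratio was -0.14 in cycling and -0.02 in non-cycling cells.

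Seen within each library, cycling and non-cycling control cells differed little, with a median log2 ratio of non-cycling over cycling cells of -0.03 over the 16 enzymes, 9 of them below 0. In the RUNX1-labelled library this median was -0.33, with 13 of 16 below 0. Over all genes at 10 CPM or more the medians were -0.06 in the control and 0.03 in the RUNX1-labelled library. LDHA was at -0.03 in the control and -0.89 in the RUNX1-labelled library. The phosphofructokinases PFKL and PFKP were lower in non-cycling cells of both libraries by like amounts (PFKL -0.38 and -0.32, PFKP -0.39 and -0.35).

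SLC2A3 followed the cycling state in both libraries. In the control it was at 5.42 CPM in cycling and 13.8 CPM in non-cycling cells. In the RUNX1-labelled library it was at 11.0 and 29.6 CPM. Its log2 ratio of non-cycling over cycling cells was 1.35 and 1.43 in the libraries, and its ratio between libraries was 1.02 in cycling and 1.10 in non-cycling cells. Over all cells it was 1.74. SLC2A1 moved less with the state, with a log2 ratio of non-cycling over cycling cells of -0.36 in the control and -0.13 in the RUNX1-labelled library.

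Among the HIF targets the state mattered for some genes only. BNIP3 had similar log2 ratios between libraries in both states (-2.17 and -2.21), as did P4HA1 (-1.52 and -1.27) and HIF1A (-0.90 and -0.79). PFKFB3 reached 11.5 CPM in the non-cycling cells of the RUNX1-labelled library, against 4.52 CPM in its cycling cells and 5.45 and 5.07 CPM in the control states. MXI1 was higher in non-cycling than in cycling cells of both libraries, at 32.6 against 23.7 CPM in control cells and 35.1 against 18.97 CPM in the RUNX1-labelled library. NDRG1 was at 2.93 CPM in cycling and 8.56 CPM in non-cycling cells of the RUNX1-labelled library, against 1.33 and 2.03 CPM in the control.

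Summed over the 17 enzymes, glycolytic transcripts were 1.34% of all UMIs in the control and 0.728% in the RUNX1-labelled library, which is 1.84-fold lower. Within cycling cells the sum was 1.67-fold lower and within non-cycling cells 2.10-fold lower. It was 1.63-fold lower in cells called S and 1.70-fold lower in cells called G2/M. GAPDH alone gave 42.5% and 48.1% of the sum.

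The lower sum was seen across most cells rather than in a few. To compare cells of unequal depth, each was thinned at random to 8000 UMIs. This left out 413 control cells (64 of them non-cycling) and 612 cells of the RUNX1-labelled library (592 of them non-cycling). Values over all thinned cells of the RUNX1-labelled library therefore rest on a larger share of cycling cells than before thinning. The median number of enzyme UMIs per cell was 107 in the control (10th to 90th percentile 79 to 137) and 57 in the RUNX1-labelled library (38 to 77). Of the thinned cells of the RUNX1-labelled library, 91.7% lay below the 10th percentile of the control, and 0.119% lay above its median. In cycling cells the medians were 107 and 63, and in non-cycling cells 109 and 50.

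Single genes showed the same order in thinned cells. LDHA had at least 1 UMI in 99.4% of control cells and 74.95% of cells of the RUNX1-labelled library (99.5% and 80.6% before thinning), with medians of 7 and 1 UMIs. BNIP3 was seen in 35.4% and 9.22% of thinned cells (48.8% and 17.6% before thinning). SLC2A3 was seen in 4.46% and 14.7% (7.38% and 24.9% before thinning), and in the RUNX1-labelled library in 8.83% of cycling and 19.3% of non-cycling cells. Neither library held a cell type known to lack these genes, so the share due to free RNA was not measured.

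Enzyme levels also varied among the 2934 non-cycling cells of the RUNX1-labelled library. Cells with UMIs of the chemokine genes CCL3 or CCL4 (1458 cells) had LDHA at 126 CPM, SLC2A3 at 35.2 CPM and ENO1 at 255 CPM. Those with the adaptor gene FCER1G but neither chemokine (659 cells) had LDHA at 129, SLC2A3 at 29.6 and ENO1 at 251 CPM. The 817 cells with none of these transcripts had LDHA at 244, SLC2A3 at 22.5 and ENO1 at 447 CPM, nearer to the cycling cells at 311, 11.0 and 537 CPM. BNIP3 lay between 11.7 and 13.4 CPM in all 4 sets of cells. The last set of non-cycling cells was also the deepest, with a median of 15517 UMIs per cell against 10021 and 10728, and the part of depth in these values was not tested.

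For comparison, genes of neighbouring pathways were examined. None of the 7 pentose phosphate genes, 8 genes of pyruvate entry to mitochondria and 19 tricarboxylic acid (TCA) cycle genes measured was 2-fold lower or higher. Of all genes only 4.1% were 2-fold lower and 5.18% higher, so in lists this small the lack of such genes does not set them apart. The median log2 ratio of the pentose phosphate genes was -0.34, with RPIA, which makes ribose 5-phosphate, at -0.47 and PGD and TALDO1 at -0.42 and -0.38. For pyruvate entry the median was -0.30, with DLAT and MPC1, a pyruvate dehydrogenase subunit and a pyruvate carrier, at -0.43 and -0.41 and the kinase PDK3 at -0.33. For the TCA cycle it was -0.11, close to all genes (-0.13), with IDH3A at -0.80, FH at -0.54 and IDH1, a cytosolic enzyme, at 0.42. The direction of the TCA median turned to 0.10 with totals that leave out mitochondrial and ribosomal protein genes, and to 0.02 in non-cycling cells.

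The serine branch, which leaves glycolysis at 3-phosphoglycerate, had log2 ratios below 0 in all 7 genes measured (6 with totals that leave out mitochondrial and ribosomal protein genes), with a median of -0.68. Of all 7980 genes 4797 were below 0. The log2 ratio of SHMT2 was -0.01, with an interval that held 0 (-0.05 to 0.02). PSAT1 was at 142 and 71.1 CPM, a log2 ratio of -0.995 and just short of 2-fold, PHGDH at -0.76 and MTHFD2 at -0.74. In cycling cells the median of this branch was -0.24. Of the 9 glycogen and gluconeogenesis genes, with a median of -0.55, none was 2-fold changed (4.1% of all genes were lower and 5.18% higher). GBE1 (glycogen branching), G6PC3 and GYS1 (glycogen synthase) were at -0.78, -0.75 and -0.64. Of 26 further isoforms of glycolytic genes and transporters 6 were measured, with a median of -0.17. The transporter SLC2A6 was at 4.55 and 17.1 CPM, a log2 ratio of 1.91 over all cells, 0.35 in cycling and 1.87 in non-cycling cells, whereas SLC2A5 was at -0.33 and C12orf5 (TIGAR) at -0.23. SLC2A6 here and CITED2 below passed 10 CPM only in the RUNX1-labelled library, and PDK3 and GYS1 only in the control. For such genes passing and ratio are not independent.

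The HIF pathway outside the members was mixed. Of 18 further HIF targets measured, 2 were at least 2-fold lower over all cells (4.1% of all genes) and none 2-fold higher (5.18% of all genes). The lower ones were MIF, a cytokine, at 714 and 276 CPM (log2 ratio -1.37), and AK4, an adenylate kinase of mitochondria, at 133 and 61.7 CPM (-1.11). The median was -0.31, and TFRC, the transferrin receptor, was at -0.89. In non-cycling cells 19 were measured, 4 of them at least 2-fold lower (6.43% of all genes) and 2 at least 2-fold higher (9.9% of all genes). The 2 higher genes, named after their values were seen, were BHLHE40 at 2.72 (from 8 control UMIs) and RAB20 at 1.08. BHLHE40 passed 10 CPM there only in the RUNX1-labelled library, so its passing and its ratio are not independent. Over all cells BHLHE40 had 123 and 564 UMIs, under 10 CPM in both libraries, a log2 ratio of 2.20. Of 12 HIF regulators measured none was 2-fold changed (4.1% of all genes were lower and 5.18% higher), with a median of -0.17. CITED2, which competes with HIF for its coactivators, was at 9.76 and 19.3 CPM (0.99), whereas TCEB2 and CUL2, of the complex that degrades HIF, were at -0.58 and -0.38. The 9 measured genes of the MYC and MAX network had a median of 0.12, with the MAX partners MXD4 at 0.85 and MGA at -0.36 and the glucose-regulated gene TXNIP at 0.59. Within cycling and non-cycling cells MXD4 was at -0.36 and 0.08, and TXNIP at -0.41 and 0.75. MYC itself, singled out after its value was seen, was at 501 and 420 CPM, a log2 ratio of -0.25 over all cells, -0.07 in cycling and -0.70 in non-cycling cells. With totals that leave out mitochondrial and ribosomal protein genes the medians of the HIF regulators and of the further isoforms turned to 0.04 and 0.04, and with TMM scaling that of the MYC and MAX network turned to -0.01. By state, the median of the HIF regulators turned to 0.09 in non-cycling cells and that of the MYC and MAX network to -0.07 in cycling cells.

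**Figure D2:**
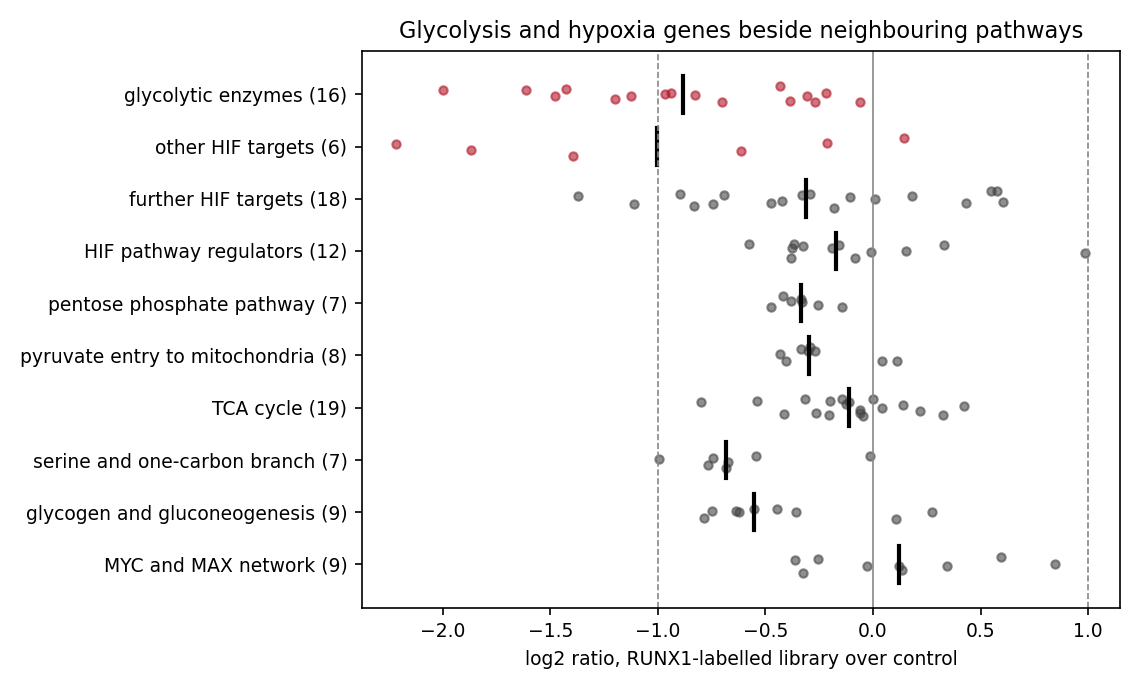
The log2 ratio (RUNX1-labelled library over control) of each measured gene (points) of the glycolytic enzymes, the other HIF targets and 8 neighbouring lists, with the number of genes in brackets. Black bars are medians and dashed lines mark 2-fold. The enzymes and other HIF targets had medians of -0.88 and -1.004, and the TCA cycle genes a median of -0.11.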

How the data were processed

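scRNA-seq libraries of Nalm-6 cells were made with the 10x Genomics Chromium 3′ assay after dead cell removal, from lanes that held human and mouse cells. Per the labels and the study's methods, the authors aligned reads with Cell Ranger 3.0.2 to hg19 and mm10, and the deposited values are raw UMI counts per gene and cell for human barcodes, 1 library per group. Cells with more than 2000 and fewer than 6000 genes and under 20% mitochondrial UMIs were kept, as in the study. No doublet caller was run.

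UMIs were summed over cells and scaled to CPM. Genes that reached 10 CPM in either library were compared by the log2 ratio, RUNX1-labelled library over control, and called at 2-fold or more. Intervals (95%) are exact: Poisson for levels, conditional binomial for ratios and Clopper-Pearson for shares. They cover counting error only. Phases were called with scanpy 1.11.5 from 42 S and 54 G2/M genes that hold no member, and G1 cells were taken as non-cycling. The ratio step was tested on simulated data (7980 genes), where all 100 genes changed by 4-fold were called and no unchanged gene was. TMM factors came from edgeR 4.0.16. Gene positions are GENCODE on hg19.

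Every member is reported. Of each further list, up to 3 measured genes with the largest ratio in size were named. Members, lists and the sets of non-cycling cells were chosen with earlier results of these data known. 16 alternatives were tried, and 2 more (ranges of mitochondrial share) were added after seeing the data. Ranges of depth were compared as well.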

Additional observations from a re-analysis of the deposited data

Results flagged for a closer look

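PDK1 and BNIP3L had log2 ratios (RUNX1-labelled library over control) of opposite sign in the cycling states, with counting intervals on opposite sides of 0. PDK1 was at -0.96 in cycling cells (24.3 and 12.5 CPM) and 0.50 in non-cycling cells (13.2 and 18.6 CPM, from 65 control UMIs). BNIP3L was at -0.75 in cycling cells (90.5 and 53.8 CPM) and 0.24 in non-cycling cells (87.8 and 104 CPM). With 1 library per group the difference between the states was not tested.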

How the results depend on the processing

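Over the 16 alternatives the number of members at least 2-fold lower ran from 7 (totals without mitochondrial and ribosomal protein genes) to 13 (mitochondrial limit of 10%). Of all genes 1.89% and 3.54% were at least 2-fold lower under these settings, against 4.1% in the values reported. GPI, TPI1, ENO1, LDHA, BNIP3, VEGFA and P4HA1 were at least 2-fold lower in all 16. SLC2A1 was in 9, HK2 and PGK1 in 15, and SLC2A3 at least 2-fold higher in 14. The medians below are for members, enzymes and other HIF targets, which were -0.79, -0.88 and -1.004 in the values reported. With TMM factors they were -0.92, -1.01 and -1.13, and with the median of ratios -0.92, -1.01 and -1.13. With totals without mitochondrial and ribosomal protein genes they were -0.52, -0.61 and -0.40. Under these totals 2 members were at least 2-fold higher, where 9.74% of all genes were. With those totals more genes passed 10 CPM: 30 members, 17 enzymes and 9 other HIF targets, against 26, 16 and 6. Over the same 26 members and 6 HIF targets as in the values reported, the medians were -0.58 and -0.79. With a floor of 1 CPM the enzymes were at -0.82 and the HIF targets at -0.71 (2 members higher, where 12.6% of all genes were). With no floor the medians were -0.67, -0.82 and -0.41 (4 members higher, where 18.6% of all genes were). These floors only add genes, and over the same 6 HIF targets the median stayed at -1.004. A mitochondrial limit of 10% gave -0.90 and -1.02 for members and enzymes, and the mean of single-cell CPM gave -0.90 and -0.84 for enzymes and HIF targets. Weighting both states equally gave -0.84, -0.85 and -0.83. In cycling cells the enzymes and HIF targets were at -0.76 and -1.24. With calls on thinned cells they were at -0.76 and -1.24 (0 members higher, where 1.67% of all genes were). Without cells near the limit of the phase call the medians were -0.84, -0.77 and -1.24 (0 members higher, where 1.57% of all genes were). In non-cycling cells 2 members were higher under each of the 3 phase settings, where 9.9%, 8.01% and 10.0% of all genes were. The enzymes in these cells were at -0.92, with thinned calls -0.91, and without cells near the limit -0.93, with the members at -0.74. There the median of the other HIF targets, over 7 genes since PFKFB3 passed the floor, turned to 0.107, 0.0192 and 0.0934, whereas over the same 6 genes as in all cells it was -0.58, -0.61 and -0.58. In cells with a mitochondrial share of 15 to 20%, chosen after seeing the data, the median of the members was -0.62. Depth limits the 467 non-cycling control cells most: 3 UMIs there correspond to 0.608 CPM, against 0.0396 CPM over all control cells. No paired analysis was possible because there was 1 library per group and no test.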
